A study of Arabidopsis thaliana with 20 samples.

Results

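Vesicle traffic genes and tetraspanin genes were followed in laser-captured root cells of Arabidopsis thaliana. They were all genes with a probe set of their own on the array whose symbol belongs to the SYP, VAMP, RAB, EXO70, VPS or SEC series, or is TET with a number. Of 22746 gene probe sets, 13513 were listed with 1 gene, and 36 of these followed the rule: 15 tetraspanins (TET2 to TET16), 10 VPS genes, 10 SEC genes and RAB6A. No SYP, VAMP or EXO70 gene was listed with a probe set of its own under such a symbol, so most syntaxins and Rab GTPases were not analysed here. A probe set listed with both SEC3A and SEC3B was left out for the same reason.

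Vesicles carry membrane and cargo between the compartments of a plant cell. Rab GTPases and their exchange factors direct a vesicle to its target, tethers such as the exocyst hold it at the plasma membrane, and SNARE proteins with their Sec1/Munc18 partners fuse it. ESCRT complexes work at endosomes, where they sort membrane proteins into inner vesicles for breakdown in the vacuole. Tetraspanins are small multi-pass membrane proteins that gather into membrane domains, and TET8 of Arabidopsis is known from vesicles released outside the cell. By these roles the 36 members were 15 tetraspanins, 9 ESCRT genes, 6 exocyst genes, 4 genes of fusion and Rab control (SEC1B, SEC22, RAB6A, VPS9B) and 2 genes that match by symbol only: SECE1 and SECA2 belong to Sec translocases of the plastid.

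Plants of the Columbia ecotype received 1000 juveniles (second stage) of Meloidogyne incognita, a root-knot nematode, at an age of 3 weeks, and cells were captured from sections taken at day 21 of infection. The nematode turns root cells into giant cells, on which it feeds. A giant cell sample held about 80 cells and a control sample about 150 root cells from parts of the same infested roots without nematodes, so the controls are not from uninfested plants and are not of a named cell type. RNA was amplified with WT-Ovation Pico after column isolation, or with WT-Ovation One-Direct straight from lysed cells, and "kit" stands below for amplification and isolation together. The 4 groups, control and giant cells with each kit, had 3 biological samples each, on 20 arrays in all, and 1 sample per group was split over 3 technical arrays. Which plants a sample came from is not in the labels, so the p-values speak for the spread among these samples, which may share plants.

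Every array had the same trimmed mean signal of 500, with medians from 166.6 to 311.4, so each level below is relative to its array and not an amount per cell. Fewer cells of a type and less RNA per cell cannot be told apart, nor can cell type and the number of cells captured. Within groups, the samples correlated across probe sets at 0.92 to 0.968 with Pico and at 0.69 to 0.852 with One-Direct, where control sample 1 had the lowest values (0.69 and 0.741). Of 16 marker genes of other root cell types, a single-gene probe set was found for 2, AT1G62500 of cortex (signal 4.12 to 642.4) and EXPA7 of root hairs (1.26 to 43.5). Neither passed the filter, so the make-up of the samples was not checked. For the GAPDH control probe sets the log2 ratio of 3' to 5' signal, a sign of RNA quality, was 3.46 ± 1.02 (SD, n = 3) for One-Direct controls and 2.27 ± 0.179 for One-Direct giant cells. For Pico it was 2.34 ± 0.204 and 1.2 ± 0.158, and over both kits it dropped by 1.17 from control to giant cells (exact permutation test within kits, two-sided, p = 0.005, the smallest it can give). Its part in the changes below was not tested.

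Signals were taken as log2(signal + 16), technical arrays were averaged, and a probe set was tested if 3 or more of the 12 samples had it above their array's median. Of the 36 members 24 passed: 6 tetraspanins, 9 ESCRT genes, 5 exocyst genes, 3 of fusion and Rab control, and SECE1. The 12 dim members were 9 tetraspanins, SEC5B, VPS9B and SECA2. "Called" means an adjusted p under 0.05 in limma over all 14652 tested probe sets.

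Between giant and control cells the tetraspanins TET3, TET6 and TET8 and the ESCRT gene VPS2.1 fell over both kits, and the ESCRT genes VPS2.2 and VPS24.2 rose. Falls were from 1.78-fold (VPS2.1) to 4.08-fold (TET8), and rises were 2.16-fold (VPS24.2) and 2.93-fold (VPS2.2). Neither SECE1 nor any tested gene of the exocyst or of fusion and Rab control was called. These 6 of 24 members (25%) stand beside 19.6% of all tested probe sets, and the 2 higher and 4 lower members beside 10.5% and 9.04%. Unadjusted, 9 of the 24 had a limma p under 0.05. The share of all tested probe sets at that unadjusted p was not counted, so nothing is read from this number. The median log2 change of the 24 was 0.08, and that of all tested probe sets 0.24. Relative to this overall shift, the 6 changes were -2.27 (TET8), -2.03 (TET3), -1.37 (TET6), -1.07 (VPS2.1), 0.87 (VPS24.2) and 1.31 (VPS2.2). All 6 had the same sign with both kits, as had 14 of the 24 members (58.3%) and 70.5% of all tested probe sets. The 6 were picked by their mean change over both kits, which favours equal signs, so this is no separate support. The number called rested on single samples: it was 1 without giant One-Direct sample 3 or giant Pico sample 3, and 3 without giant One-Direct sample 2, giant Pico sample 1, or control Pico sample 1, 2 or 3. With sample 1 of each One-Direct group left out, the same 6 genes were called (27.1% of all tested probe sets).

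**Figure D1:**
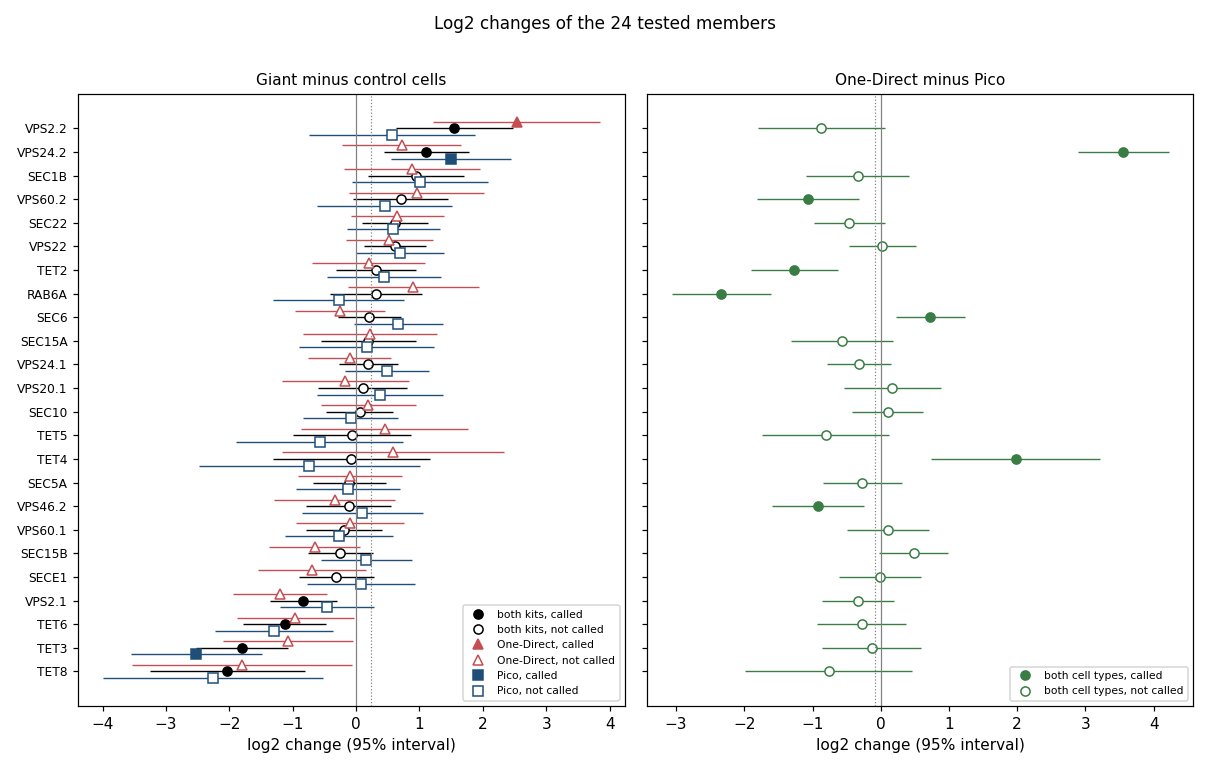
Log2 change with 95% interval of the 24 tested members, giant minus control cells on the left (both kits, One-Direct and Pico) and One-Direct minus Pico on the right. Filled symbols are called at an adjusted p under 0.05, dotted lines mark the median of all 14652 tested probe sets, and genes are ordered by their change over both kits, from TET8 (-2.03) at the bottom to VPS2.2 (1.55) at the top.

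TET3 (AT3G45600), a tetraspanin found at plasmodesmata, had log2 signals of 10.24, 11.14 and 10.57 in control cells with Pico and of 8.06, 8.07 and 8.26 in giant cells. With One-Direct its values were 9.18, 10.51 and 9.69 in control and 9.72, 8.23 and 8.21 in giant cells. The Pico groups lay wide apart, while giant One-Direct sample 1 fell inside the range of its controls. Over both kits TET3 fell by 1.80 on the log2 scale (SE 0.34, 95% interval -2.52 to -1.07, limma adjusted p = 0.00321), or 3.47-fold. It kept this call in all 23 other settings run, leaving out each sample in turn included, with log2 changes from -2.20 to -1.55. With Pico alone the log2 change was -2.52 (SE 0.48, limma adjusted p = 0.00516), and with One-Direct alone -1.07 (adjusted p = 0.186). The difference of 1.45 between these effects had an interval from -0.01 to 2.90 and was not called (limma adjusted p = 0.544).

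TET8 (AT2G23810), the tetraspanin used as a marker of released vesicles, varied more between samples. In control cells with One-Direct it read 8.52, 11.65 and 11.57, and in giant cells 9.76, 9.06 and 7.50. In control cells with Pico it read 10.62, 11.69 and 12.39, and in giant cells 9.14, 9.85 and 8.94. Every giant sample with Pico lay below every control sample, and with One-Direct the groups overlapped through control sample 1, about 3 log2 units below the other controls. Over both kits TET8 fell by 2.03 on the log2 scale (SE 0.57, interval -3.26 to -0.80, limma adjusted p = 0.0254). Without control One-Direct sample 1 the change was -2.54 (adjusted p = 0.0014), and -2.79 with sample 1 of each One-Direct group left out. The call was lost in 6 of 23 other settings, without control One-Direct sample 2, giant One-Direct sample 3, control Pico sample 2 or 3, or giant Pico sample 1 or 3, with adjusted p up to 0.0669. The 3 technical arrays of control One-Direct sample 2 ran from 11.59 to 11.68 and those of giant One-Direct sample 1 from 9.66 to 9.85. With Pico, those of control sample 2 ran from 11.62 to 11.74 and those of giant sample 1 from 8.88 to 9.47, the widest of the 4.

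TET6 (AT3G12090), known from root growth together with its close relative TET5, had log2 signals of 10.48, 10.84 and 10.05 in One-Direct controls and 10.29, 9.20 and 9.01 in One-Direct giant cells. With Pico they were 11.51, 10.65 and 10.55 in control and 9.37, 9.92 and 9.53 in giant cells. The groups were apart with Pico and overlapped with One-Direct through giant sample 1. Over both kits TET6 fell by 1.13 on the log2 scale (SE 0.30, limma adjusted p = 0.0213), a call lost in 5 of 23 other settings, without giant One-Direct sample 2 or 3, control Pico sample 1, or giant Pico sample 1 or 3 (adjusted p up to 0.0585). TET5 itself was tested and not called: its log2 change was 0.45 with One-Direct, -0.57 with Pico and -0.06 over both kits (interval -0.99 to 0.87). Its control samples with One-Direct were spread from 7.07 to 10.12.

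The other tested tetraspanins, TET2 and TET4, were not called either. TET2 changed by 0.32 (interval -0.31 to 0.95) and TET4 by -0.07 (interval -1.31 to 1.16), so a change of the size seen in TET3 lies outside the interval of TET2 and of TET5, but a change as large as that of TET6 lies inside the interval of TET4. Of the 6 tested tetraspanins 3 fell and 0 rose, with a median log2 change of -0.60, beside 9.04% lower, 10.5% higher and a median of 0.24 over all tested probe sets. Groups apart with Pico were not particular to TET3, TET6 and TET8. All giant samples lay above all controls with Pico for VPS20.1, VPS22, VPS24.1, VPS24.2, SEC6, SEC1B and SEC22. How many of all tested probe sets were parted with Pico was not counted. The other 9 of the 15 family members, TET7 and TET9 to TET16, did not pass the filter, with median signals from 13.4 (TET16) to 104.6 (TET10). TET4, with a median signal of 59.6, passed through 3 One-Direct samples. TET11 and TET16 lie next to each other on chromosome 1, with 0 genes between them in RefSeq's TAIR10.1 annotation.

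Among these 9 dim tetraspanins, 4 had all giant samples below all controls with Pico, as had 13.5% of all 8094 probe sets below the filter, and none of the 3 other dim members did. TET10 read 7.33, 7.27 and 7.30 in control and 6.23, 4.51 and 6.25 in giant cells, TET14 read 5.79, 5.72 and 6.01 against 4.48, 4.23 and 4.80, and TET7 read 6.83, 6.17 and 6.38 against 5.66, 4.17 and 5.93. TET9 read 6.58, 7.29 and 7.44 in control and 6.38, 4.13 and 5.46 in giant cells. In all 4 every giant sample lay below every control sample. With One-Direct none of the 4 was parted in this way, and TET10 ran from 5.13 to 7.16 in control and from 6.72 to 8.50 in giant cells. In a fit without the filter, where 5.79% of all probe sets were called with Pico, 0 of the 12 dim members were called by limma (adjusted p from 0.162 to 0.22 for these 4 genes, each under 0.05 before adjustment), and the log2 changes with Pico were -1.64 (TET10), -1.34 (TET14), -1.21 (TET7) and -1.78 (TET9). With One-Direct the same fit gave 1.24 (TET10), 0.57 (TET14), 0.30 (TET7) and -0.505 (TET9). These 4 were singled out after their values were seen. Giant cell signals of TET10, TET14, TET7 and TET9 were as low as 6.80, 2.79, 1.98 and 1.47, below the pseudocount of 16, so these changes depend on it. No dim member was called over both kits or with One-Direct either. There the fit without the filter called 11.7% and 3.5% of all probe sets. Of the 12 dim members 2 and 1 had an unadjusted p under 0.05, and the share of all probe sets at that p was not counted.

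**Figure D2:**
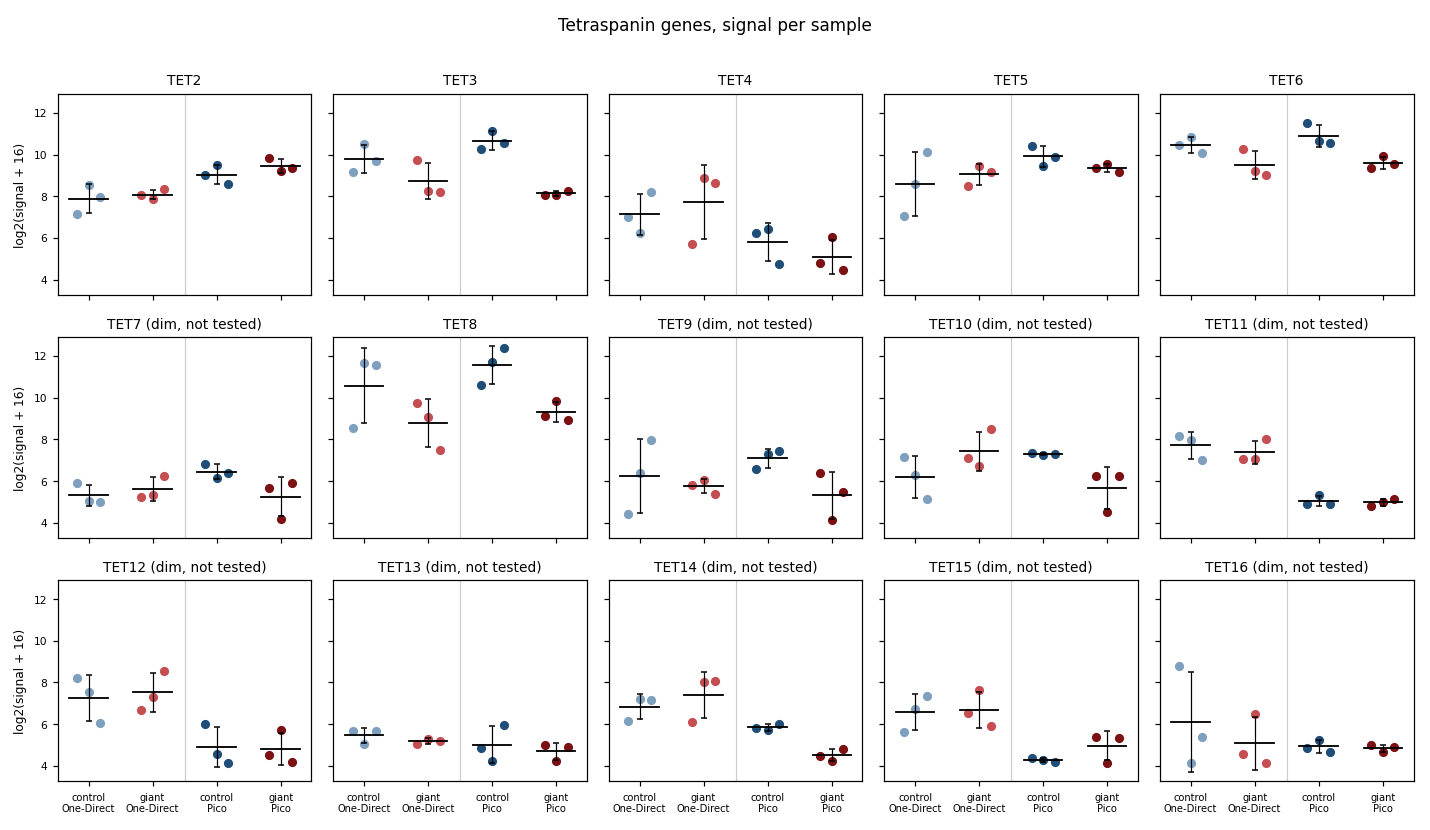
Signal of the 15 tetraspanin genes in each biological sample, as log2(signal + 16), for control and giant cells with One-Direct and with Pico (points are samples in the order 1, 2, 3 from left to right; horizontal lines are the mean and error bars the SD, n = 3). TET3, TET6 and TET8 lie lower in all giant than in all control samples with Pico, and the share of all tested probe sets parted in this way was not counted. Panels marked dim did not pass the filter.

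Called ESCRT genes went in both directions. Of 9 tested, VPS2.2 and VPS24.2 rose, VPS2.1 fell and 6 were not called. The median log2 change of the 9 was 0.19. Over all tested probe sets 10.5% were called higher and 9.04% lower, and the median was 0.24. VPS2.1 (AT2G06530), a core subunit of ESCRT-III, read 12.72, 12.06 and 12.25 in One-Direct controls and 11.28, 11.32 and 10.82 in One-Direct giant cells. With Pico it read 11.96, 12.47 and 12.49 in control and 11.67, 12.15 and 11.72 in giant cells. The One-Direct groups did not overlap, and the Pico groups did. Over both kits VPS2.1 fell by 0.83 on the log2 scale (SE 0.24, limma adjusted p = 0.0302), and the call was lost in 7 of 23 other settings: with no filter, with quantile normalisation, and without giant One-Direct sample 3, control Pico sample 2 or 3, or giant Pico sample 1 or 3 (adjusted p up to 0.0817).

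VPS2.2 (AT5G44560), a paralogue of VPS2.1, went the other way. In control cells with One-Direct its log2 signals were 4.58, 7.70 and 5.85, and in giant cells 8.35, 8.73 and 8.65. With Pico they were 7.61, 7.65 and 8.43 in control and 8.07, 8.61 and 8.70 in giant cells. The giant samples were close together with both kits, and the One-Direct controls lay below them with a wide spread, down to a signal of 7.89. VPS2.2 was above its array's median in 7 samples, namely every giant sample and control Pico sample 3. It thus passed the filter only through the giant cells, where it was higher. VPS2.2 rose by 1.55 over both kits (SE 0.43, limma adjusted p = 0.0245, and 0.0335 in the fit without the filter), and by 2.53 with One-Direct (adjusted p = 0.0311). The One-Direct change was 1.80 without control One-Direct sample 1 and 3.36 without control One-Direct sample 2, both called, and 1.64 with sample quality weights, where it was not (adjusted p = 0.0937). With Pico the change was 0.57 and was not called (adjusted p = 0.64). Without control One-Direct sample 1 the change over both kits was 1.19. The call over both kits was lost in 7 of 23 other settings, namely with the first technical array alone and without giant One-Direct sample 2 or 3, control Pico sample 1 or 2, or giant Pico sample 2 or 3 (adjusted p up to 0.0799). The 3 technical arrays of giant One-Direct sample 1 ran from 7.42 to 9.45 for this gene.

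VPS24.2 (AT3G45000), of another core subunit of ESCRT-III, was bright with One-Direct and dim with Pico. Its log2 signals were 4.54, 4.78 and 4.71 in control and 5.82, 6.66 and 6.05 in giant cells with Pico. With One-Direct they were 9.22, 8.77 and 7.88 in control and 8.64, 9.53 and 9.85 in giant cells, and the groups overlapped. Pico control signals of 7.31 to 11.5 lay under the pseudocount of 16, so the size of this change depends on it: the log2 change over both kits was 1.11 (SE 0.31, limma adjusted p = 0.025), 1.46 with a pseudocount of 4 and 0.68 with 64 (adjusted p = 0.0831). The call was lost in 8 of 23 other settings, including median centring and leaving out giant One-Direct sample 2 or 3, control Pico sample 1 or 3, or giant Pico sample 2 or 3. Its paralogue VPS24.1, named for the pair below, changed by 0.19 (interval -0.27 to 0.66).

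VPS22 (AT4G27040), of ESCRT-II, was among the members not called, although all its giant samples lay above all its controls with each kit, which is why it was singled out after its values were seen. It read 10.25, 9.80 and 10.12 in One-Direct controls and 10.79, 10.40 and 10.55 in One-Direct giant cells, and 10.08, 10.09 and 9.69 against 10.73, 10.80 and 10.40 with Pico. Its log2 change of 0.61 (interval 0.12 to 1.10) had a limma adjusted p of 0.0767. SEC22, a SNARE of traffic between the endoplasmic reticulum and the Golgi, had the same order of samples and a log2 change of 0.62 (interval 0.10 to 1.14, limma adjusted p = 0.087). With One-Direct its groups almost met, at 9.833 in control sample 3 and 9.849 in giant sample 3. The 3 technical arrays of control One-Direct sample 2 ran from 9.12 to 10.08 for SEC22. VPS22 and SEC22 were the 2 of 24 members (8.33%) whose groups did not overlap in the same direction with both kits, beside 12.1% of all tested probe sets. The other ESCRT genes not called, VPS20.1, VPS46.2, VPS60.1 and VPS60.2, had log2 changes between -0.18 and 0.70.

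**Figure D3:**
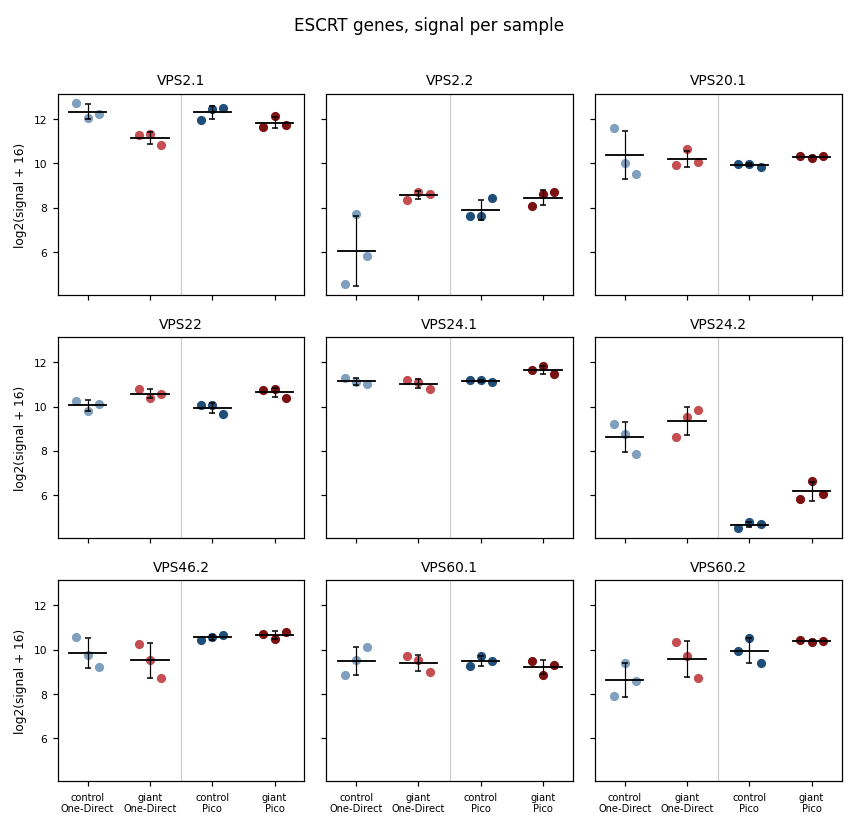
Signal of the 9 ESCRT genes in each biological sample, as log2(signal + 16), by cell type and kit (points are samples, horizontal lines the mean, error bars the SD, n = 3). VPS2.1 is lower and VPS2.2 higher in giant cells, all VPS22 giant samples lie above their controls, and VPS24.2 differs most between the kits.

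For the 5 pairs of members that are numbered paralogues, the gap between the 2 genes was taken within each sample, so that a factor common to an array drops out except through the pseudocount. This comparison was chosen once the data were known, and VPS2 and VPS24 hold genes already called. VPS2.2 minus VPS2.1 was higher in giant than in control cells by 2.39 log2 units, with 3.74 in One-Direct and 1.03 in Pico (exact permutation test within kits, two-sided, p = 0.005, adjusted over 5 pairs 0.025). In both kits every giant sample had a higher value than every control sample: the gap was -4.35, -4.83 and -4.06 in control and -3.59, -3.54 and -3.02 in giant cells with Pico, and -8.14, -4.36 and -6.41 against -2.93, -2.59 and -2.17 with One-Direct. How often other genes part in this way was not counted. VPS2.2 had already been called higher and VPS2.1 lower in these samples, so this test could hardly fail and is no separate support. Over 17 other settings the difference ran from 1.93 to 2.87 with exact permutation p of at most 0.02.

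VPS24.2 minus VPS24.1 rose by 0.92 (exact permutation p = 0.015, adjusted 0.025) and VPS60.2 minus VPS60.1, of an ESCRT-III-related subunit, by 0.89 (exact permutation p = 0.015, adjusted 0.025). Each had an exact p under 0.05 in 16 of 17 other settings, and 0.095 and 0.05 in the remaining one. VPS24.2 had already been called higher in these samples, so its pair is no separate support either. Its Pico control signals lay under the pseudocount. With One-Direct the groups overlapped in both pairs: giant sample 1 of VPS24 (-2.56) lay below control sample 1 (-2.09), and giant sample 3 of VPS60 (-0.26) below control sample 2 (-0.12). SEC5B minus SEC5A, of the exocyst, rose by 1.12 (exact permutation p = 0.035, adjusted 0.0438), but SEC5B was below the filter and the p was 0.05 or more in 7 of 17 other settings. SEC15B minus SEC15A changed by -0.44 (exact permutation p = 0.35).

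**Figure D4:**
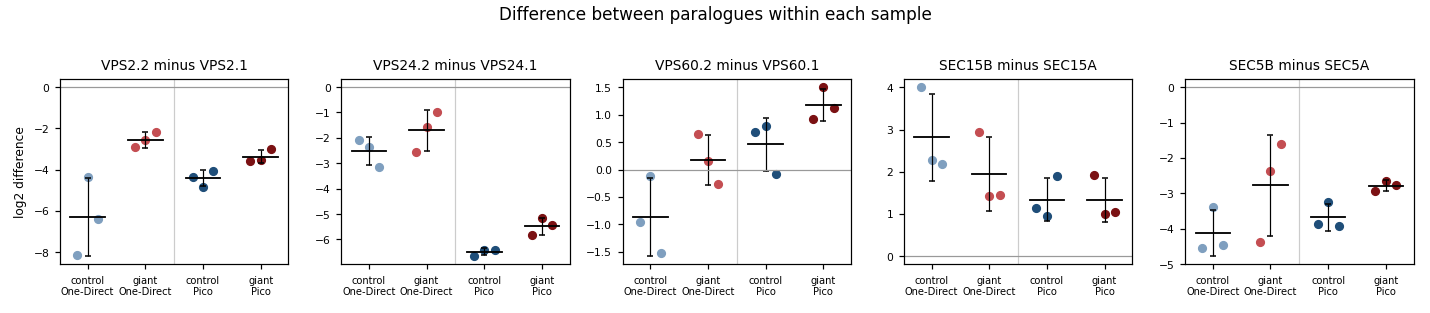
Difference in log2(signal + 16) between numbered paralogues within each sample, by cell type and kit (points are samples, horizontal lines the mean, error bars the SD, n = 3). Only the change between groups can be read, since the level of a gap also depends on the probes; it is 2.39 log2 units higher in giant cells for VPS2.2 minus VPS2.1 and -0.44 for SEC15B minus SEC15A.

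The exocyst, which tethers secretory vesicles at the plasma membrane, showed no called change between giant and control cells. This was 0 of 5 tested subunits beside 19.6% of all tested probe sets, too few genes to set them apart from that share. None of the 5 subunits of the exocyst had an unadjusted p under 0.05. Its 5 tested subunits, SEC10, SEC15A, SEC15B, SEC5A and SEC6, had log2 changes from -0.25 to 0.21 (median 0.05, limma adjusted p from 0.486 to 0.898). SEC6 had the narrowest interval of the 5, from -0.29 to 0.71. It read 8.24, 8.59 and 8.80 in control and 9.36, 9.05 and 9.22 in giant cells with Pico, where the groups did not overlap, and 9.49, 9.57 and 10.12 against 9.33, 9.49 and 9.61 with One-Direct, where they did. The dim sixth subunit, SEC5B, read 5.03, 6.60 and 5.91 against 6.05, 7.21 and 8.01 with One-Direct, where the groups overlapped, and 6.51, 6.74 and 6.48 against 6.84, 7.90 and 7.28 with Pico, where they did not. In the fit without the filter its log2 change was 1.005 (SE 0.38, limma unadjusted p = 0.0187, adjusted p = 0.1), so it was not called. The probe set shared by SEC3A and SEC3B changed by 0.28 (limma adjusted p = 0.50).

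No gene of fusion and Rab control was called either (0 of 3 tested, beside 19.6% of all tested probe sets). SEC1B, a Sec1/Munc18 relative of KEULE in membrane fusion, named after its values were seen, changed by 0.94 (interval 0.19 to 1.70, limma adjusted p = 0.0748). It read 7.47, 7.88 and 6.01 in One-Direct controls and 8.08, 8.29 and 7.63 in One-Direct giant cells, and 7.93, 7.64 and 6.62 against 8.43, 8.21 and 8.57 with Pico. Control sample 3 was the lowest of its group with each kit. RAB6A (AT2G44610), a Rab GTPase of the Golgi, changed by 0.31 (interval -0.42 to 1.05), with 0.90 in One-Direct and -0.27 in Pico. SECE1 of the plastid Sec translocase changed by -0.31 (interval -0.91 to 0.29).

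**Figure D5:**
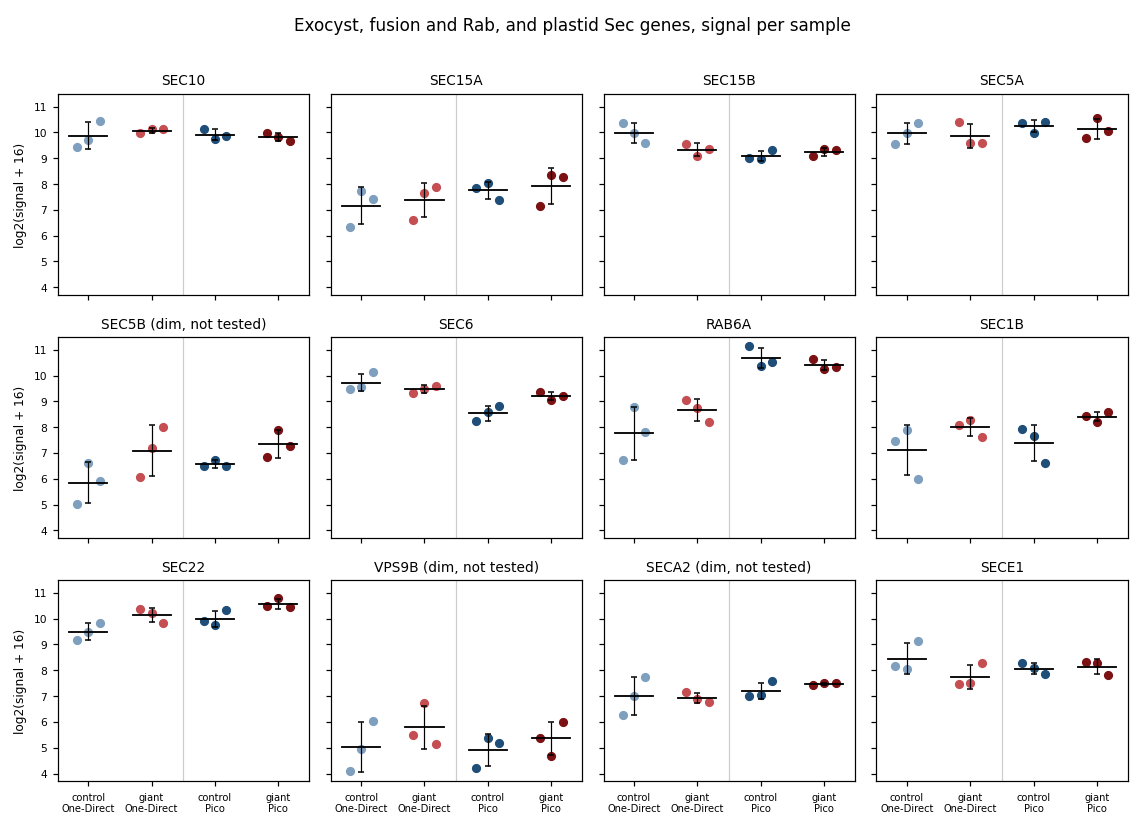
Signal of the exocyst genes, the genes of fusion and Rab control, and the plastid Sec genes in each biological sample, as log2(signal + 16), by cell type and kit (points are samples, horizontal lines the mean, error bars the SD, n = 3). RAB6A is higher with Pico in both cell types, and SEC22 giant samples lie above their controls with each kit, though with One-Direct the groups almost meet.

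With Pico alone, 2 of 24 members were called (8.33%, beside 9.49% of all tested probe sets): TET3 fell and VPS24.2 rose, where 7.06% of all tested probe sets were called lower and 2.43% higher. The spread in this fit is shared with the more variable One-Direct samples, whose median residual SD was 0.699 against 0.378. With only the Pico samples in the fit 4 members were called (20.9% of all tested probe sets): TET3, TET6 (-1.30, limma adjusted p = 0.0274), TET8 (-2.26, adjusted p = 0.013) and VPS24.2 (1.50, adjusted p = 0.00989). With sample quality weights 7 of 24 were called, near the 28% of all tested probe sets that were called there. The call of VPS24.2 with Pico was lost in 14 of 24 other settings, among them leaving out any of the 6 Pico samples, control One-Direct sample 2, or giant One-Direct sample 2 or 3, which each gave 1 call, that of TET3. Leaving out these samples gave 725 to 1470 calls over all tested probe sets, against 1391 in the main fit.

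With One-Direct alone, 1 of 24 members was called (4.17%, beside 5.64% of all tested probe sets, 3.54% higher and 2.1% lower), VPS2.2, which rose. With only the One-Direct samples in the fit it was not (adjusted p = 0.176). There limma called 0 of all 14652 tested probe sets, with 2215 of them and 2 of the 24 members at an unadjusted p under 0.05. Without giant One-Direct sample 2 or 3 the count was 0, and without control One-Direct sample 1 or 2 it was 2. For all tested probe sets these counts were 190 and 197, and 1148 and 1432, against 826 in the main fit. With sample quality weights 1 was called, TET8 (-2.62, limma adjusted p = 0.0469) in place of VPS2.2. With sample 1 of each One-Direct group left out, 3 were called (11.7% of all tested probe sets): VPS2.2, TET3 (-1.88, limma adjusted p = 0.0161) and TET8 (-3.33, adjusted p = 0.00974).

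No member's giant cell effect was called as different between the kits (limma, 0 of 24, beside 0.0205% of all tested probe sets). VPS2.2 alone of the 24 had an unadjusted p under 0.05, with a difference of 1.97 log2 units (interval 0.11 to 3.83, limma adjusted p = 0.516). These intervals are wide: for TET8 the difference of 0.45 ran from -2.01 to 2.91. The fit without the filter called 0 of all probe sets, and 2 of the 12 dim members had an unadjusted p under 0.05. There the difference was 2.87 for TET10 (limma adjusted p = 0.22) and 1.91 for TET14 (adjusted p = 0.327), both named after their values were seen. Their changes were negative with Pico and positive with One-Direct.

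Between the kits themselves 7 of 24 members were called over both cell types (29.2%, beside 34.3% of all tested probe sets), 3 higher and 4 lower in One-Direct (18% and 16.3% of all tested probe sets), with a median log2 difference of -0.30 against -0.09. With median centring 12 were called (45.9% of all tested probe sets), 2 higher and 10 lower, and with quantile normalisation 7, 1 higher and 6 lower, so the balance of directions depended on scaling. Called members numbered 4 without giant One-Direct sample 2 or 3, control Pico sample 1, or giant Pico sample 2 or 3. These fits called 4290 to 4348 of all tested probe sets, against 5027 in the main fit.

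RAB6A was 5.04-fold lower with One-Direct (log2 difference -2.33, SE 0.34, limma adjusted p = 0.000152) and was called in all 23 other settings. Its values with One-Direct were 6.71, 8.77 and 7.79 in control and 9.04, 8.75 and 8.20 in giant cells. With Pico they were 11.13, 10.38 and 10.53 in control and 10.62, 10.27 and 10.33 in giant cells, so all samples of one kit lay beyond all of the other. TET2 was likewise lower with One-Direct in every sample of each cell type, with 7.14 to 8.55 against 8.58 to 9.49 in control and 7.87 to 8.33 against 9.20 to 9.84 in giant cells (log2 difference -1.27, limma adjusted p = 0.00455).

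VPS24.2 was higher with One-Direct by 3.55 log2 units (SE 0.31, limma adjusted p = 2.15e-06), and from 2.56 to 4.13 over 23 other settings, since its Pico control signals lay under the pseudocount. TET4 was higher by 1.98 (adjusted p = 0.0166), with the call lost with quantile normalisation and with the first technical array alone. TET4 was above its array's median in 3 samples and VPS24.2 in 6, all with One-Direct. Both thus passed the filter only through the kit in which they were higher, and TET4 did not pass the stricter filter of 6 samples. In the fit without the filter the limma adjusted p was 0.014 for TET4 and 2.42e-06 for VPS24.2. SEC6 was higher by 0.73 (adjusted p = 0.027) and VPS60.2 lower by 1.06 (log2 difference -1.06, adjusted p = 0.03), each with the call lost in 7 of 23 other settings. For SEC6 these were both other scalings and leaving out giant One-Direct sample 2 or 3, control Pico sample 1, or giant Pico sample 2 or 3. For VPS60.2 they were leaving out giant One-Direct sample 2 or 3, control Pico sample 1 or 2, or any giant Pico sample. VPS46.2, named after its value was seen, made up the 7 (-0.93, adjusted p = 0.0347). Among the 12 dim members, in the fit without the filter (36.1% of all probe sets called), TET11 (2.53, adjusted p = 2.8e-05), TET12 (2.54), TET14 (1.95) and TET15 (2.01) were higher with One-Direct and 0 were lower.

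Spread between samples of the 24 tested members was larger with One-Direct, as for all probe sets. Taking 1 array per sample, their median SD over biological samples was 0.661 in One-Direct controls and 0.463 in One-Direct giant cells, and 0.301 and 0.216 with Pico. Over the 3 technical arrays of the split samples it was 0.496 and 0.321 with One-Direct and 0.242 and 0.247 with Pico, against 0.647, 0.389, 0.285 and 0.288 for all tested probe sets.

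Among other membrane traffic genes, 1 was called between the cell types. Of 49 loci listed by function (clathrin, dynamins, coat and fusion factors and others), 9 had a probe set of their own and all 9 were tested. Of these 1 rose, 0 fell and 8 were not called, beside the 10.5% higher and 9.04% lower of all tested probe sets. The riser was AT2G28390, listed in RefSeq as MON1, whose product activates Rab GTPases of the late endosome. Its log2 change was 1.79 (limma adjusted p = 0.00724), with 2.65 in One-Direct (adjusted p = 0.0186). With Pico it was 0.94 and was not called (limma adjusted p = 0.354). Signals ran down to 10.2, under the pseudocount. Over both cell types the gene was lower with One-Direct (log2 difference -1.58, limma adjusted p = 0.00665). Other settings were not given for it. A further list held 10 genes of the same families that RefSeq names by a synonym, among them VPS36 and SNF7.1 of ESCRT and KEU (KEULE). Of its 8 tested genes 0 were called, beside 19.6% of all tested probe sets, too few genes to set them apart from that share. Both lists together made 17 genes, 15 of them tested, with 12 positive changes and a median of 0.50 against 0.24 for all tested probe sets. The share of positive changes over all tested probe sets was not counted, so nothing is read from the 12.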

How the data were processed

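The authors ran MAS5 in Affymetrix Expression Console, per the submitters' processing notes (versions not given in the sources used here), and the deposited values are linear signal intensity for 22810 probe sets per array, scaled to a common mean trimmed by 2% at each end. How the background was treated is not given in the sources used here. From these, each array was rescaled to the common trimmed mean, 64 control probe sets were left out, and log2(signal + 16) was averaged over technical arrays. No array was identical to another. Group means of all 12 samples were fitted with limma 3.58.1 (R 4.3.3; lmFit, eBayes) over 14652 probe sets, with Benjamini-Hochberg adjustment over all of them. Tests were two-sided, and the step was tested on simulated data. Precision is limited by the number of arrays and samples, and fold changes of dim probe sets are understated. Gene names come from the array's annotation and RefSeq (assembly TAIR10.1).

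The members, lists and tests were chosen with earlier results of these data known. Members named with values were those called over both kits, the 4 of smallest p within each kit, the 6 between kits, every tetraspanin, and the brightest tested RAB, SEC and VPS gene (RAB6A, SEC22, VPS2.1). Exact permutation tests reassigned cell type within each kit (400 arrangements).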

Additional observations from a re-analysis of the deposited data

How the results depend on the processing

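Counts of called members by setting were as follows. Numbers in brackets after a count are those called of all probe sets tested in that setting. Between giant and control cells over both kits, where 6 were called (2868), leaving out 1 sample gave 1 to 7 (1808 to 3812). The other settings gave 5 to 8 (2273 to 4335). With One-Direct 1 was called (826). The count was 2 with a pseudocount of 64 (971), with the stricter filter of at least 6 samples above the median (788) and with median centring (818). It was 0 with the first technical array alone (463), with only the compared samples (0) and with a weight per kit (10). It was 3 with sample 1 of each One-Direct group left out (1720), and 0 to 2 leaving out 1 sample (190 to 1432). With Pico 2 were called (1391). The count was 1 with a pseudocount of 64 (1406), with no filter (1317), with quantile normalisation (762) and with the first technical array alone (1176). It was 4 with only the compared samples (3056), with a weight per kit (3487) and with sample 1 of each One-Direct group left out (2505). It was 7 with sample quality weights (4101), and 1 to 3 leaving out 1 sample (725 to 2293). The change of the giant cell effect from one kit to the other gave 0 in every setting run (0 to 53). In the main limma fit 1 of 24 had an unadjusted p under 0.05, as reported. Between kits, where 7 were called (5027), the count was 11 with no filter (8220) and 12 with median centring (6730). It was 4 to 7 leaving out 1 sample (4265 to 5772) and 5 to 7 in the others (3702 to 6235). Members chosen by the RefSeq symbol were as many. With the biological replicate number as a replicate block, the counts were 6 (2748), 1 (751), 0 (2) and 7 (4912), and 1 (1307) with Pico, where VPS24.2 lost its call (limma adjusted p = 0.0662). Same-numbered samples of different groups correlated in their deviations at -0.064 to 0.138, so the numbers were not taken as pairs.

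Signs turned for members that were not called: TET2 to -0.034 with quantile normalisation, RAB6A to -0.041 with sample 1 of each One-Direct group left out, and TET4 to 0.10 with a pseudocount of 64, 0.22 with the first technical array, 0.27 with quality weights and 0.40 with sample 1 of each One-Direct group left out. Leaving out 1 sample, TET4 ran from -0.36 to 0.43 and TET5 from -0.44 to 0.32. The cause of these changes was not tested. Dim signals, as of VPS24.2 and 9 tetraspanins, limit what the arrays can show.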
